A study of Mus musculus with 21 samples.

Results

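Prostaglandin synthesis and receptor genes were examined in whole-brain RNA-seq of SAMP8 mice, a senescence-accelerated strain. The 10 genes were chosen by name, with earlier results of these data known. They comprised the cyclooxygenases Ptgs1 and Ptgs2 and the prostaglandin E synthases Ptges, Ptges2 and Ptges3. The others were the prostaglandin D synthases Ptgds and Hpgds and the prostaglandin E receptors Ptger1, Ptger3 and Ptger4. Each of the 10 was found once among the 16318 genes of the deposited table, and all 10 passed the low-count filter that kept 16303 genes. HsTX1[R14A], a peptide that blocks the potassium channel Kv1.3, was given subcutaneously at 1 mg/kg on alternate days for 8 weeks to 9 mice (3 female, 6 male), and phosphate-buffered saline (PBS) to 12 mice (6 female, 6 male). All mice were of the SAMP8 strain and 6 months old when the brains were taken after perfusion with cold PBS, 1 library was made per mouse, and no mice of another strain entered these comparisons. The study had measured Ptgs2 by PCR in isolated microglia, where it compared younger SAMP8 mice with a control strain, without dosing. The values here are instead from the whole brain of dosed mice. The question put to these values is whether transcripts of the prostaglandin pathway differed between treatments.

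Cyclooxygenases convert arachidonic acid, released from membrane lipids by phospholipases and other lipases, into prostaglandin H2. Terminal synthases then turn prostaglandin H2 into prostaglandin E2 or D2, and these act on G protein-coupled receptors of nearby cells. In the brain, COX-2 (Ptgs2) is made by excitatory neurons and induced by synaptic activity and inflammation, COX-1 (Ptgs1) is found in microglia, lipocalin-type prostaglandin D synthase (Ptgds) is abundant in the meninges, the choroid plexus and oligodendrocytes, and hematopoietic prostaglandin D synthase (Hpgds) is found in microglia and other macrophages.

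On GRCm38, 4 of the 10 genes lie on chromosome 2 (Ptgds from 25466709 to 25470046, Ptges from 30889471 to 30929863, Ptges2 from 32395896 to 32405772 and Ptgs1 from 36230426 to 36252272). Ptgs2 lies on chromosome 1 from 150100031 to 150108227, Ptger3 on chromosome 3 from 157566892 to 157645888, Hpgds on chromosome 6 from 65117293 to 65144908 and Ptger1 on chromosome 8 from 83666678 to 83672753. Ptges3 lies on chromosome 10 from 128058954 to 128077272 and Ptger4 on chromosome 15 from 5206661 to 5244187. RefSeq start windows (GRCm38.p6, 250 bases before and 50 after the start) were at hand for 9 of the 10 genes and searched on both strands for 6 motifs that were chosen with these windows in view. The sequences of Ptgs2 and of the 3 genes that were lower after HsTX1[R14A] are shown, since the comparisons below turn on these genes. They are written 5′ to 3′ in the direction of the gene, cut to bases outside the exons of protein-coding transcripts, with motif letters in capitals. Positions are counted from the RefSeq start, with -1 the base before it.
Ptgs2, chr1:150099781-150100030, + strand: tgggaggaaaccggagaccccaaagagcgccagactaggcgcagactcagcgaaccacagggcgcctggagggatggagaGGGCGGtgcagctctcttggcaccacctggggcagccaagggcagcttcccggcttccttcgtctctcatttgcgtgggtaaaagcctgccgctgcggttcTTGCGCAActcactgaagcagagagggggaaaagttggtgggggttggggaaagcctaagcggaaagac
Ptgs2 site after the start, chr1:150100037-150100058, + strand: accactACGTCACGTGgagtcc
Ptgds, chr2:25469843-25469999, - strand: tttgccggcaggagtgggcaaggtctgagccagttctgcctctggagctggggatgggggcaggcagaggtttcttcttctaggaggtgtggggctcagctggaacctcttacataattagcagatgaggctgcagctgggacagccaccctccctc
Ptgds site before the start, chr2:25469766-25469790, - strand: caagccTGACTCATAAATAgggggt
Ptges, chr2:30903298-30903547, - strand: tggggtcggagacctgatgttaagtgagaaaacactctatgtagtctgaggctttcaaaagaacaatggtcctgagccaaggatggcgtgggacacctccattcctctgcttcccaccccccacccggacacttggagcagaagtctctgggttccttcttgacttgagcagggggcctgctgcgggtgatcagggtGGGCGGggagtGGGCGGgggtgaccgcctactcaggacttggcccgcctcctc
Hpgds, chr6:65144909-65144980, - strand: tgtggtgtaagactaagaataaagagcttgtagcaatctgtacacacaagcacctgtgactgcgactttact

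Ptgs2 held the C/EBP motif TTGCGCAA at -69 to -62, which is in 0.183% of the 32851 RefSeq start windows of the same length. Just after its start, the cAMP response element core TGACGT (in 7.51% of windows, read here on the other strand as ACGTCA) and the E-box CACGTG (7.15%) overlapped by a pair of bases. Ptgds held the AP-1 motif TGACTCA (5.2% of windows) at -35 to -29, sharing 1 base with the TATA-type motif ATAAATA (5.6%) at -29 to -23. This Ptgds site lies within an exon of a longer annotated transcript, and is therefore shown as a short stretch. The GC box GGGCGG, in 35.7% of windows, was in 5 of the 9 windows, namely those of Ptgs2, Ptges, Ptges3, Ptger3 and Ptger4, and Ptges had it at -53 to -48 and at -42 to -37. The window of Hpgds held none of the 6 motifs. A match describes letters in the window only.

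Depth ranged from 14917174 to 36207554 counts in PBS and from 17552413 to 47613792 in HsTX1[R14A] libraries, and CPM below are TMM-scaled, that is, relative to a common library total. Neuron and astrocyte transcripts were abundant. Snap25, a synaptic vesicle fusion protein of neurons, had a mean of 2474 CPM and Slc1a2, the astrocyte glutamate transporter, one of 2201 CPM. The libraries also differed in the slope of expression on transcript length, that is, the change in log2 CPM relative to the mean of all mice for each doubling of a gene's longest transcript. It ran from -0.384 to 0.147 (median -0.02) in PBS mice and from -0.14 to 0.234 (median 0.15) in HsTX1[R14A] mice, and mitochondrially encoded transcripts took 9.33% to 20.2% (median 14.5%) against 7.14% to 13.5% (median 9.40%) of the counts. Library names came in 2 forms, one with 10 PBS and 5 HsTX1[R14A] mice, the other with 2 and 4.

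Per kilobase of longest transcript, Ptgds was the highest of the 10 genes in PBS mice, at 407 ± 179 CPM per kilobase (SD, n = 12). Ptges3, a co-chaperone of Hsp90 that is also a cytosolic prostaglandin E synthase, followed at 69.6 ± 13.7 CPM per kilobase, and Ptges2, a membrane-associated prostaglandin E synthase, at 5.42 ± 0.794. The ranges of these 3 genes did not overlap with those of their neighbors. Ptgs1 and Ptgs2 were close to each other, at 3.37 ± 0.552 and 3.13 ± 0.766 CPM per kilobase, followed by Hpgds at 1.74 ± 0.276 and Ptges at 1.44 ± 0.431. The receptors were lowest, with Ptger4 at 0.933 ± 0.249, Ptger3 at 0.662 ± 0.125 and Ptger1 at 0.246 ± 0.09. From Ptgs1 down to Ptger3, each gene's range over the mice overlapped that of the next. The order of neighbors there is thus not resolved beyond the spread. Genes farther apart could separate, as Ptgs1 (lowest 2.28) and Ptgs2 (lowest 2.01) lay above the ranges of Ptger4 (highest 1.53) and Ptger3 (highest 0.907). Ptger1 lay below the range of Ptger3. The order was the same with the principal transcript in place of the longest.

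**Figure D1:**
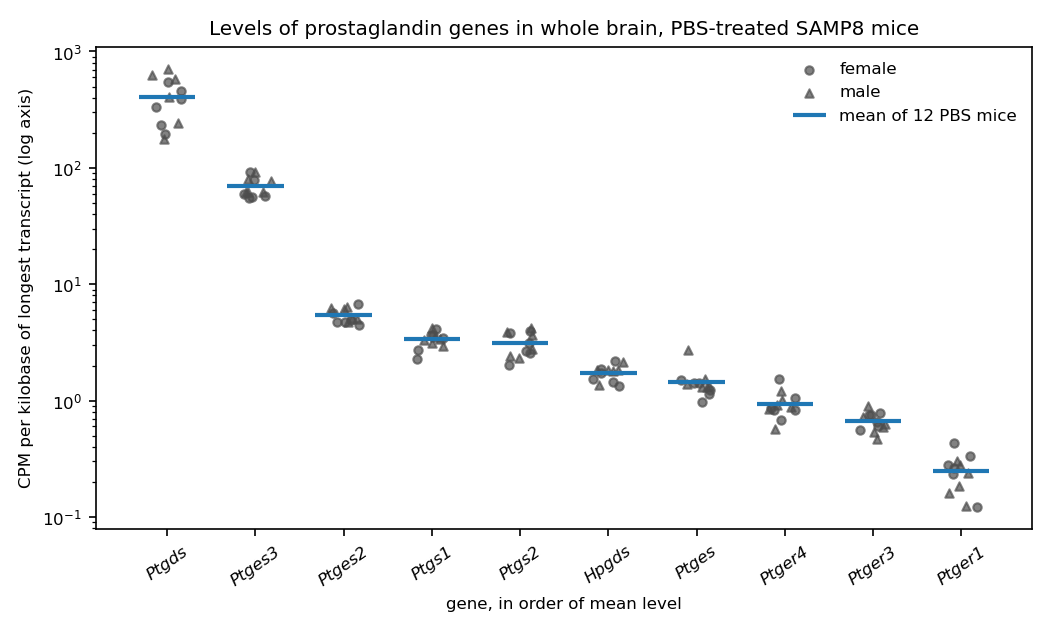
CPM per kilobase of longest transcript (log axis) of the 10 genes in the 12 PBS-treated mice, 1 point per mouse (circles female, triangles male), with the mean as a line. Ptgds (mean 407) and Ptges3 (69.6) stand above the others, and Ptger1 (0.246) below them.

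Between treatments, 3 of the 10 genes passed an FDR of 0.05 in edgeR's quasi-likelihood test with sex in the model, namely Ptgds, Ptges and Hpgds, and all 3 were lower in HsTX1[R14A]-treated mice. The background was high, since 31.6% of all tested genes passed in either direction, 15.5% higher and 16.1% lower. The median log2 fold change (HsTX1[R14A] over PBS) was -0.07 over the 10 genes and -0.01 over all genes tested. The cyclooxygenases and the E receptors did not pass.

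Ptgs1 ranged from 6.53 to 12.1 CPM (median 9.80) in PBS mice and from 7.28 to 11.5 CPM (median 10.2) in HsTX1[R14A] mice. The groups overlapped over nearly their whole ranges, with 5 of 9 HsTX1[R14A] mice above the PBS median. The log2 fold change was 0.03 (standard error 0.10, 95% confidence interval -0.18 to 0.23, adjusted p = 0.841, edgeR). Ptgs2, the inducible enzyme, ranged from 8.94 to 18.9 CPM (median 13.2) in PBS mice and from 8.26 to 24.4 CPM (median 13.7) in HsTX1[R14A] mice. Both the lowest and the highest of the 21 mice (88 and 92) had received HsTX1[R14A]. Its log2 fold change was 0.04 (standard error 0.17, 95% confidence interval -0.32 to 0.39, adjusted p = 0.883, edgeR), and the interval spans fold changes from 0.801 to 1.31. Ptgs2 stood at 8.94 to 17.8 CPM in PBS females and 10.2 to 18.9 CPM in PBS males, so that the sexes overlapped as well.

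Ptges, the inducible microsomal prostaglandin E synthase usually coupled to COX-2, ranged from 3.53 to 9.89 CPM (median 4.99) in PBS mice and from 3.25 to 4.84 CPM (median 3.85) in HsTX1[R14A] mice. All 9 HsTX1[R14A] mice were below the PBS median, and 7 of 12 PBS mice were above the highest HsTX1[R14A] mouse. Its log2 fold change was -0.43 (standard error 0.13, 95% confidence interval -0.70 to -0.16, adjusted p = 0.0230, edgeR), and the fitted level fell by 25.9%. The PBS value of 9.89 CPM came from male mouse 83, and without it the log2 fold change was -0.31 (adjusted p = 0.0242, edgeR). The gene passed in 21 of 21 fits that each omitted 1 mouse, with adjusted p-values from 0.0157 to 0.0439. With the library name form in the model the adjusted p was 0.0588, and the log2 fold change was -0.45 (adjusted p = 0.0853) within the 15 mice of one name form and -0.16 (adjusted p = 0.880) within the 6 of the other.

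Ptges2 ranged from 22.3 to 33.9 CPM (median 25.3) in PBS mice and from 21.02 to 33.7 CPM (median 23.6) in HsTX1[R14A] mice, with nearly complete overlap. Its log2 fold change was -0.10 (standard error 0.09, 95% confidence interval -0.30 to 0.09, adjusted p = 0.401, edgeR). Ptges3 ranged from 111 to 184 CPM (median 125) in PBS mice and from 90.7 to 152 CPM (median 116) in HsTX1[R14A] mice. Of the HsTX1[R14A] mice 3 were below the lowest PBS mouse, and 5 PBS mice were above the highest HsTX1[R14A] mouse. The log2 fold change of -0.24 (standard error 0.11, 95% confidence interval -0.47 to -0.02) did not pass (adjusted p = 0.0865, edgeR), except without HsTX1[R14A] mouse 93 (adjusted p = 0.0464). An annotated processed pseudogene, Ptges3-ps, could share reads with Ptges3, and the deposited table does not list it.

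Ptges3 followed the length slope of the libraries more closely than any of the other 9 genes. With treatment and sex means removed, Pearson's r between its log2 CPM and the slope was -0.928 (permutation p = 1e-05, adjusted p = 0.0009) and Spearman's rho was -0.952 (permutation p = 1e-05, adjusted p = 0.0009) over 21 mice, where 1e-05 is the smallest p that the permutations can give and adjustment is over 90 relations. Without the 2 mice of the most distant slopes r was -0.897, and it was -0.944 for the 15 mice with the commoner form of name, the other form having too few mice. Ptges2 (r = -0.677, adjusted p = 0.0237), Ptgs1 (0.712, adjusted p = 0.0237) and Ptger1 (0.732, adjusted p = 0.0139) also followed the slope in these permutation tests, while Ptges did not (r = -0.02). With the slope in the edgeR model the log2 fold change of Ptges3 was 0.08 (adjusted p = 0.582), and 0 genes of the whole table passed, against 1865 genes with an unadjusted p of at most 0.05. Under that model Ptges had a log2 fold change of -0.45 (unadjusted p = 0.00895, adjusted p = 0.318), Ptgds -0.44 (adjusted p = 0.593) and Hpgds -0.18 (adjusted p = 0.633).

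**Figure D2:**
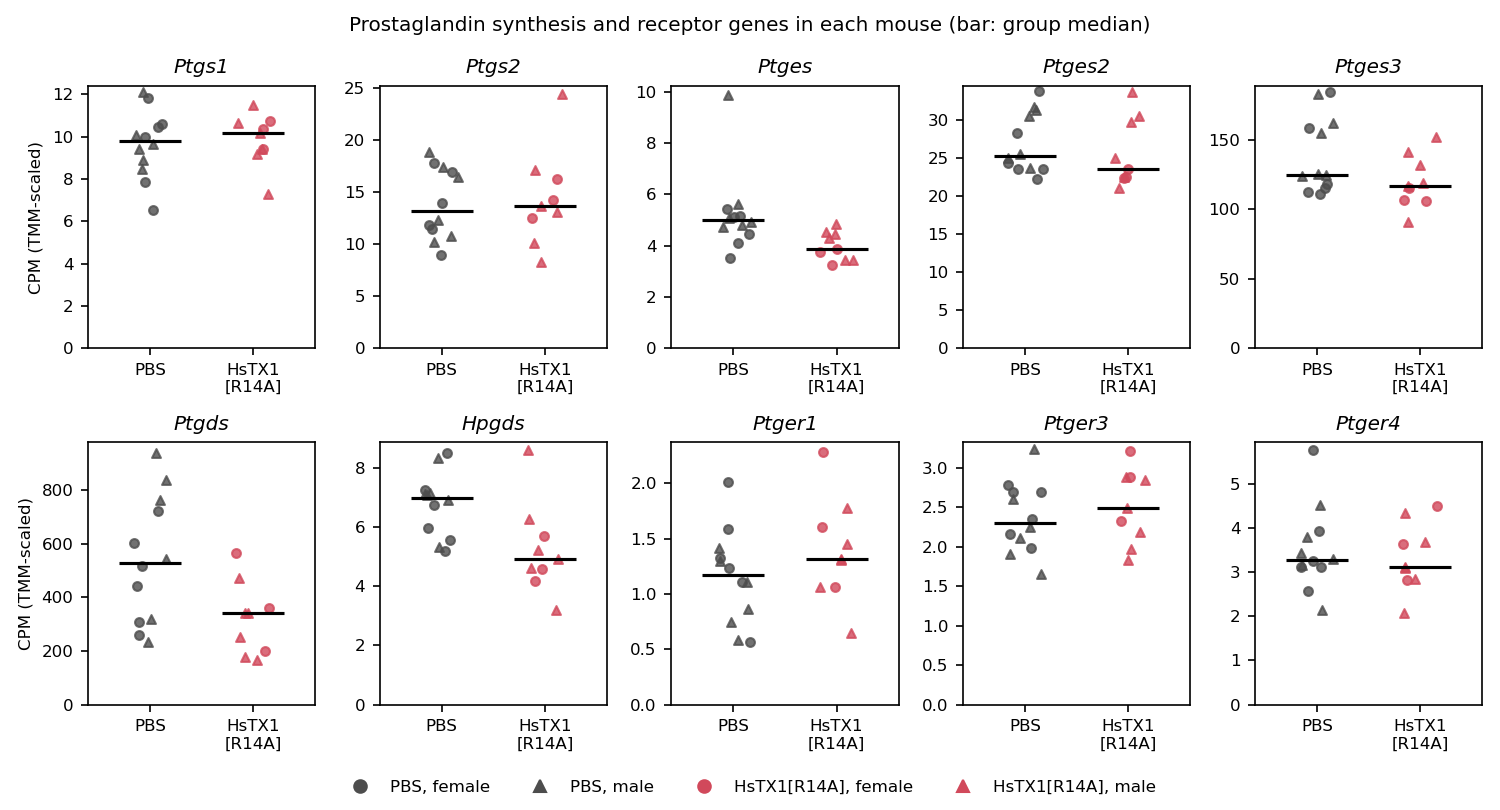
TMM-scaled CPM of the 10 genes in each mouse (grey PBS, n = 12; red HsTX1[R14A], n = 9; circles female, triangles male; bars are group medians; each panel starts at 0). Ptges, Ptgds and Hpgds have lower medians in HsTX1[R14A] mice (3.85 against 4.99, 340 against 529 and 4.92 against 6.996 CPM), whereas those of Ptgs1 and Ptgs2 are close.

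Ptgds, which makes prostaglandin D2 and is also secreted as a carrier of lipophilic ligands, ranged from 233 to 940 CPM (median 529) in PBS mice and from 167 to 564 CPM (median 340) in HsTX1[R14A] mice. Of the HsTX1[R14A] mice 8 of 9 were below the PBS median and 3 were below the lowest PBS mouse, and the groups overlapped. Its log2 fold change was -0.76 (standard error 0.28, 95% confidence interval -1.34 to -0.19, adjusted p = 0.0416, edgeR), the largest difference of the 10 genes. It was also the most variable of the 10, with a 5.62-fold range over the 21 mice. The log2 fold change was -1.05 in males (adjusted p = 0.138) and -0.34 in females (adjusted p = 0.557) fitted separately, and this difference of 0.71 (standard error 0.55) between the sexes did not pass (adjusted p = 1 for the interaction in edgeR). Ptgds lost the threshold in 13 of the 21 fits with 1 mouse left out, that is, on omitting PBS mouse 103, 105, 73, 83, 90 or 91, or HsTX1[R14A] mouse 98, 71, 74, 88, 81, 89 or 92, where the log2 fold change ran from -0.80 to -0.65 and the adjusted p from 0.0501 to 0.0802. With the name form in the model it was -0.55 (adjusted p = 0.0972), within the 15 mice -0.56 (adjusted p = 0.205) and within the 6 mice -0.54 (adjusted p = 0.855).

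Of the cell types known to express Ptgds, its level over mice followed the markers of meningeal fibroblasts. With treatment and sex means removed, r between the log2 CPM of Ptgds and the mean log2 CPM of 10 meningeal markers was 0.871 over 21 mice (permutation p = 2e-05, adjusted p = 0.0009), and rho was 0.839 (permutation p = 0.0001, adjusted p = 0.0033). Leaving out the 2 mice farthest from the median of the markers gave r = 0.818, and the 15 mice of the more common name form gave 0.817. The corresponding r was -0.137 (permutation p = 0.559) with 10 choroid plexus markers and 0.0419 (permutation p = 0.870) with 10 oligodendrocyte markers, the other known sources. The correlations themselves were not compared by a test. The marker lists were chosen with earlier results of these data known, and the permutation p-values do not allow for that choice.

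The summed level of the meningeal markers, led by the growth factor Igf2 (mean 41.9 CPM) and the proteoglycan Dcn (18.9 CPM), ran from 66.0 to 220 CPM (median 133) in PBS mice and from 58.6 to 182 CPM (median 78.2) in HsTX1[R14A] mice. Of these 10 markers 2 passed as lower and 0 as higher, and none was at 0 in any mouse. The shares over all genes tested were 16.1% lower and 15.5% higher, so 2 of 10 is near the background. Choroid plexus markers, led by Ttr (586 CPM) and Enpp2 (326 CPM), summed to 290 to 1558 CPM in PBS and 192 to 1267 CPM in HsTX1[R14A] mice, with 0 of 10 passing and 1 at an unadjusted p under 0.05 in edgeR. Oligodendrocyte markers, led by the myelin gene Mbp (2236 CPM), summed to 4490 to 6881 CPM and 3413 to 5013 CPM, with 6 of 10 lower. Ptges had r = 0.544 with the meningeal markers (permutation p = 0.0194, adjusted p = 0.0689) and Hpgds r = 0.498 (permutation p = 0.0129, adjusted p = 0.0621). With the choroid plexus markers Ptges had rho = 0.591 (permutation p = 0.0072, adjusted p = 0.0405) and r = 0.396 (permutation p = 0.0763, adjusted p = 0.178). Ptgds also went with the mitochondrial share of the library, which was lower in HsTX1[R14A] mice at the median (rho = 0.625, permutation p = 0.00606, adjusted p = 0.0405, and r = 0.548, permutation p = 0.0171, adjusted p = 0.0689). The part of these cell types and of the mitochondrial share in these differences was not tested, and in bulk tissue fewer cells of a type cannot be told apart from less RNA per cell.

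**Figure D3:**
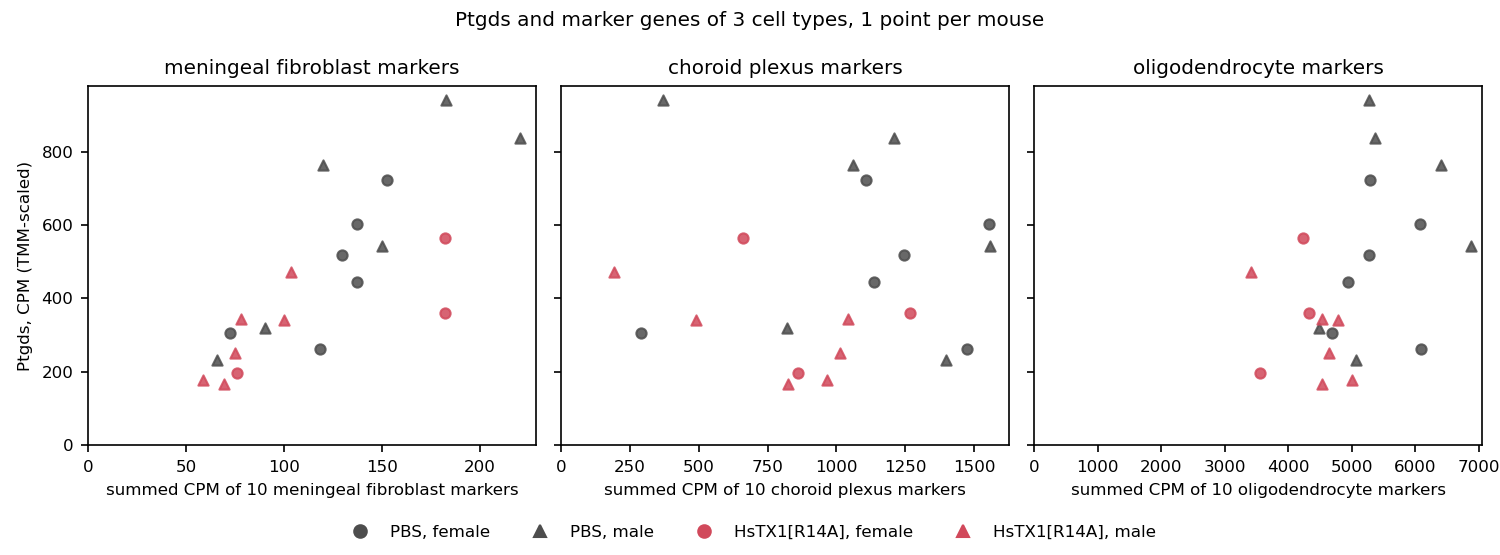
TMM-scaled CPM of Ptgds against the summed CPM of 10 meningeal fibroblast, 10 choroid plexus and 10 oligodendrocyte markers, 1 point per mouse (grey PBS, red HsTX1[R14A]; circles female, triangles male). Ptgds climbs with the meningeal sum. Within treatment and sex, its log2 CPM had r = 0.871 with the mean log2 CPM of the meningeal markers. The corresponding r was -0.137 for choroid plexus and 0.0419 for oligodendrocyte markers. These r use the mean log2 CPM of the markers and not the plotted sums.

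Hpgds ranged from 5.18 to 8.49 CPM (median 6.996) in PBS mice and from 3.201 to 8.60 CPM (median 4.92) in HsTX1[R14A] mice. Of the HsTX1[R14A] mice 5 were below the lowest PBS mouse, while mouse 93 of that group had the highest value of all 21. The log2 fold change was -0.38 (standard error 0.14, 95% confidence interval -0.67 to -0.10, adjusted p = 0.0394, edgeR). Without mouse 93 it was -0.48 (adjusted p = 0.0083). The threshold was lost on omitting PBS mouse 73, 85, 101, 82, 83, 90 or 91, or on omitting HsTX1[R14A] mouse 98, 71, 74, 88, 81 or 92, with log2 fold changes from -0.39 to -0.32 and adjusted p-values from 0.0503 to 0.0798 in these 13 fits. With the name form in the model it was -0.29 (adjusted p = 0.0947), within the 15 mice -0.31 (adjusted p = 0.134) and within the 6 mice -0.23 (adjusted p = 0.873).

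The 10 microglia markers, among them the purinergic receptor P2ry12 (mean 99.7 CPM), summed to 419 to 599 CPM (median 468) in PBS mice and 341 to 513 CPM (median 383) in HsTX1[R14A] mice. Of these markers 4 of 10 passed as lower, and none was at 0 in any mouse. For this and the lists below, the shares over all genes tested were 16.1% lower and 15.5% higher. With treatment and sex means removed, Hpgds followed them with r = 0.600 (permutation p = 0.0107, adjusted p = 0.0602) and rho = 0.634 (permutation p = 0.00663, adjusted p = 0.0405), r being 0.554 without the 2 most distant mice and 0.710 within the 15 mice of one name form. Other members of the pathway had similar values, as Ptges3 had r = 0.623 (permutation p = 0.00342, adjusted p = 0.0237), Ptges2 0.557 (adjusted p = 0.0689) and Ptgds 0.530 (adjusted p = 0.0723) with the same markers. Hpgds also went with the mitochondrial share of the library (r = 0.580, permutation p = 0.00321, adjusted p = 0.0237). Endothelial markers, of which 2 of 10 were higher and 0 lower, summed to 145 to 218 CPM in PBS and 142 to 252 CPM in HsTX1[R14A] mice, and Hpgds went against them (r = -0.63, permutation p = 0.00421, adjusted p = 0.0271). Of 10 neuron and astrocyte markers, summing to 5169 to 9312 CPM and 7454 to 10810 CPM, 1 was higher and 2 were lower. The part of microglia, of these other cells and of library composition in the Hpgds difference was not tested. Ptgs1 showed r = -0.233 (permutation p = 0.338) and Ptgs2 r = 0.142 (permutation p = 0.582) with the microglia markers.

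The 3 E receptors did not pass. Ptger1, the EP1 receptor that couples to calcium, ranged from 0.568 to 2.01 CPM in PBS mice and from 0.645 to 2.28 CPM in HsTX1[R14A] mice, with overlap throughout. Its log2 fold change of 0.32 (standard error 0.21, 95% confidence interval -0.12 to 0.75, adjusted p = 0.236, edgeR) rests on few reads, as few as 8 in 1 mouse. Ptger3, the EP3 receptor that lowers cAMP, ranged from 1.66 to 3.24 CPM and from 1.83 to 3.21 CPM, and Ptger4, the EP4 receptor that raises cAMP, from 2.14 to 5.77 CPM and from 2.08 to 4.51 CPM. Their log2 fold changes were 0.11 (95% confidence interval -0.15 to 0.37, adjusted p = 0.505) and -0.04 (95% confidence interval -0.37 to 0.28, adjusted p = 0.841), both from edgeR. Exons of Ptger4 overlap Ttc33 on the opposite strand. The strand setting of the counting is not given in the sources used here, so the counts of Ptger4 are uncertain, and those of Ptger1 are to be read with the same caution.

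**Figure D4:**
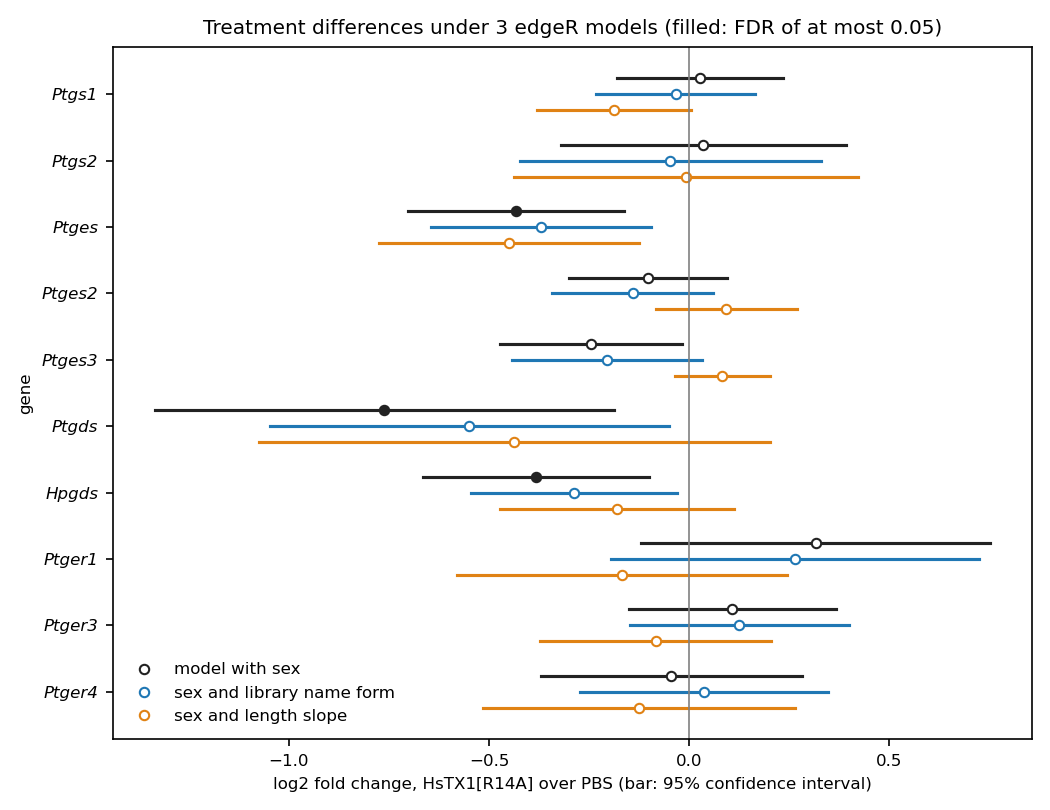
Log2 fold change (HsTX1[R14A] over PBS) of the 10 genes with 95% confidence intervals under 3 edgeR models, with sex (black), sex and library name form (blue), and sex and length slope (orange), where filled points have an FDR of at most 0.05. Ptges, Ptgds and Hpgds are filled under the first model only, and Ptges is at -0.43, -0.37 and -0.45 (adjusted p = 0.0230, 0.0588 and 0.318) while Ptges3 moves from -0.24 to 0.08 with the slope.

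No difference between the sexes passed in these genes (0 of 10), whereas 9 genes of the whole table did (0.0552%), 4 higher in females (0.0245%) and 5 lower (0.0307%). By limma/voom and DESeq2 the count was also 0 of 10, and 1 of the 10, Ptges, had an unadjusted p under 0.05 in edgeR, with a log2 fold change, female over male, of -0.28 (unadjusted p = 0.0426, adjusted p = 0.446, edgeR). PBS females had 3.53 to 5.43 CPM and PBS males 4.73 to 9.89 CPM of Ptges, so the groups overlapped. A treatment by sex interaction passed in 0 of 10 genes (0 at an unadjusted p under 0.05) and in 0 genes overall (0.0%), where edgeR found 270, limma/voom 250 and DESeq2 302 genes of the whole table at an unadjusted p under 0.05.

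Over the 21 mice, with treatment and sex means removed, the 10 genes did not move as a block. The highest Pearson r among the 45 pairs were 0.66 between Ptges2 and Ptges3, 0.54 between Ptges3 and Hpgds and 0.51 between Ptgds and Hpgds, and the lowest were -0.71 between Ptges2 and Ptger1 and -0.70 between Ptges3 and Ptger1. Ptgs1 and Ptgs2 had r = 0.26, and Ptgs2 and Ptges had r = 0.14. These points share their libraries, and Ptges2, Ptges3, Ptgs1 and Ptger1 each followed the length slope, so the values are given as a description.

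Among the 13302 genes whose mean log2 CPM reached 1, those whose log2 CPM went most closely with Ptgds within treatment and sex were Slc6a13 (r = 0.970), Slc22a6 (0.945), Gjb2 (0.938), Slc6a20a (0.917) and Aldh1a2 (0.914). Slc22a6, Slc6a20a and Aldh1a2 are on the list of meningeal markers, so they also enter the r of Ptgds with that list. For Ptgs2 the nearest genes were Msrb3 (0.860), Glt8d2 (0.849), Bdnf (0.848), Trpc6 (0.820) and Klf10 (0.813). Bdnf encodes a neurotrophin induced by neuronal activity. The 10 activity-induced neuronal genes, led by Egr1 (189 CPM) and Arc (153 CPM), went with Ptgs2 at r = 0.543 (permutation p = 0.0177, adjusted p = 0.0689) and with Ptgs1 at r = 0.710 (permutation p = 0.00196, adjusted p = 0.0196). Ptgs1 had higher r with the neuron and astrocyte markers (0.798, permutation p = 0.0004, adjusted p = 0.0072) and the endothelial markers (0.753, permutation p = 0.00196, adjusted p = 0.0196), beside its r of 0.712 with the length slope. Of the 10 activity-induced genes 6 were higher in HsTX1[R14A] mice and 0 lower, beside 15.5% higher and 16.1% lower over all genes tested. They summed to 158 to 788 CPM in PBS and 420 to 1161 CPM in HsTX1[R14A] mice, with none at 0 in any mouse. For Ptgs1 the nearest genes were Tatdn2 (0.889), Smg5 (0.889), Slc35a4 (0.870), Alas1 (0.863) and Rnpep (0.859), and for Hpgds they were Gm10643 (0.822), Hrk (0.817), Znrf2 (0.808), Clec5a (0.797) and Dbx2 (0.789). Among the 12 PBS mice alone Slc6a13 kept r = 0.973 with Ptgds, and Hrk had 0.429 with Hpgds.

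Of 53 other symbols listed for the eicosanoid pathway, 44 were tested and 10 passed (22.7%), 2 higher and 8 lower, with a median log2 fold change of -0.07. None of 4 other prostanoid receptors passed, and of these Ptger2, Ptgdr and Tbxa2r had means under 1 CPM. Of 8 other synthases 1 passed as lower, of 7 genes for breakdown and transport 1 as lower, of 15 genes for arachidonate release 2 as higher and 3 as lower, and of 10 leukotriene and lipoxygenase genes 3 as lower. These shares stand beside the 31.6% of all genes.

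Among the enzymes that free arachidonic acid, Pla2g5, a secreted phospholipase A2, was at 2.70 to 5.78 CPM (median 3.68) in PBS mice and 2.07 to 2.90 CPM (median 2.34) in HsTX1[R14A] mice. All 9 HsTX1[R14A] mice were below the PBS median, and the log2 fold change was -0.64 (standard error 0.12, adjusted p = 0.0151, edgeR). Mgll, the monoacylglycerol lipase that supplies arachidonic acid from 2-arachidonoylglycerol in the brain, was at 243 to 432 CPM against 179 to 347 CPM, with a log2 fold change of -0.40 (adjusted p = 0.0193, edgeR) and 9 of 9 HsTX1[R14A] mice below the PBS median. Pla2g15, a lysosomal phospholipase, was instead higher, at 11.7 to 19.3 CPM against 15.5 to 21.6 CPM, with a log2 fold change of 0.38 (adjusted p = 0.0163, edgeR) and 9 of 9 above the PBS median. Pla2g6, a calcium-independent phospholipase A2, had a log2 fold change of 0.50 (adjusted p = 0.0180, edgeR) with 7 of 9 above. The cytosolic phospholipase Pla2g4a, named here after its values were seen, had a log2 fold change of -0.27 (adjusted p = 0.0496), which held in only 4 of the 21 fits with 1 mouse left out (PBS mouse 105 or 101 or HsTX1[R14A] mouse 88 or 89) and otherwise reached an adjusted p of 0.0965.

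Ptgr2, a reductase that inactivates 15-keto-prostaglandins, was at 42.6 to 73.2 CPM (median 52.1) in PBS mice and 29.9 to 49.8 CPM (median 38.9) in HsTX1[R14A] mice. All 9 HsTX1[R14A] mice were below the PBS median, and the log2 fold change was -0.50 (standard error 0.11, adjusted p = 0.0151, edgeR). Cbr1, a carbonyl reductase that acts on prostaglandin E2 and was named after its values were seen, had a log2 fold change of -0.27 (adjusted p = 0.0352), lost on omitting PBS mouse 73, 101 or 90, or HsTX1[R14A] mouse 98, 71, 72, 74, 88 or 81 (adjusted p from 0.0520 to 0.0865). In the leukotriene branch, Cysltr1, a receptor for cysteinyl leukotrienes, had a log2 fold change of -0.60 (adjusted p = 0.0189, edgeR), from a median of 1.97 CPM to 1.16 CPM. Alox5ap, the 5-lipoxygenase activating protein, had one of -0.46 (adjusted p = 0.0325), lost on omitting PBS mouse 90, or HsTX1[R14A] mouse 98, 72, 74, 88 or 81 (adjusted p from 0.0529 to 0.0800). Ltc4s, leukotriene C4 synthase, had one of -0.35 (adjusted p = 0.0337), lost on omitting PBS mouse 101, 83 or 90, or HsTX1[R14A] mouse 98, 71, 72, 88 or 81 (adjusted p from 0.0512 to 0.0758). Alox5 itself, at 0.617 to 1.35 CPM in PBS mice and 0.725 to 1.27 CPM in HsTX1[R14A] mice, did not pass (adjusted p = 0.509).

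With the length slope in the edgeR model none of these 10 pathway genes passed, as 0 genes of the whole table did. The log2 fold changes then were -0.00078 for Cbr1 (adjusted p = 0.998), -0.03 for Alox5ap (0.918), 0.08 for Pla2g6 (0.601) and -0.17 for Ltc4s (0.638). Those of Ptgr2 (-0.22), Pla2g15 (0.19), Cysltr1 (-0.30) and Pla2g5 (-0.39) were also smaller by more than 1.5 times, with adjusted p-values from 0.294 to 0.488, while Mgll was at -0.31 (0.381) and Pla2g4a at -0.29 (0.394). With the name form as covariate Pla2g5, Pla2g15, Ptgr2, Pla2g6, Cysltr1 and Mgll passed, and Alox5ap, Ltc4s, Cbr1 and Pla2g4a did not (adjusted p from 0.0801 to 0.0967). With 1 surrogate variable Pla2g5, Ptgr2 and Pla2g6 passed, at -0.48, -0.31 and 0.22, whereas Alox5ap was at -0.18 (adjusted p = 0.241) and Cbr1 at -0.09 (0.261).

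Mgll had a log2 fold change of -0.57 in the 15 mice (adjusted p = 0.0563) and -0.05 in the 6 mice (adjusted p = 0.954), and the difference between the name forms was not tested. Its call was also lost without the sex term (adjusted p = 0.0621) and with the surrogate variable (0.0701), both from edgeR. Within the 6 mice the values of Pla2g15 (0.11), Ptgr2 (-0.29) and Cysltr1 (-0.18) were smaller too, and Ltc4s was at 0.19, none of them passing (adjusted p from 0.855 to 0.891).

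**Figure D5:**
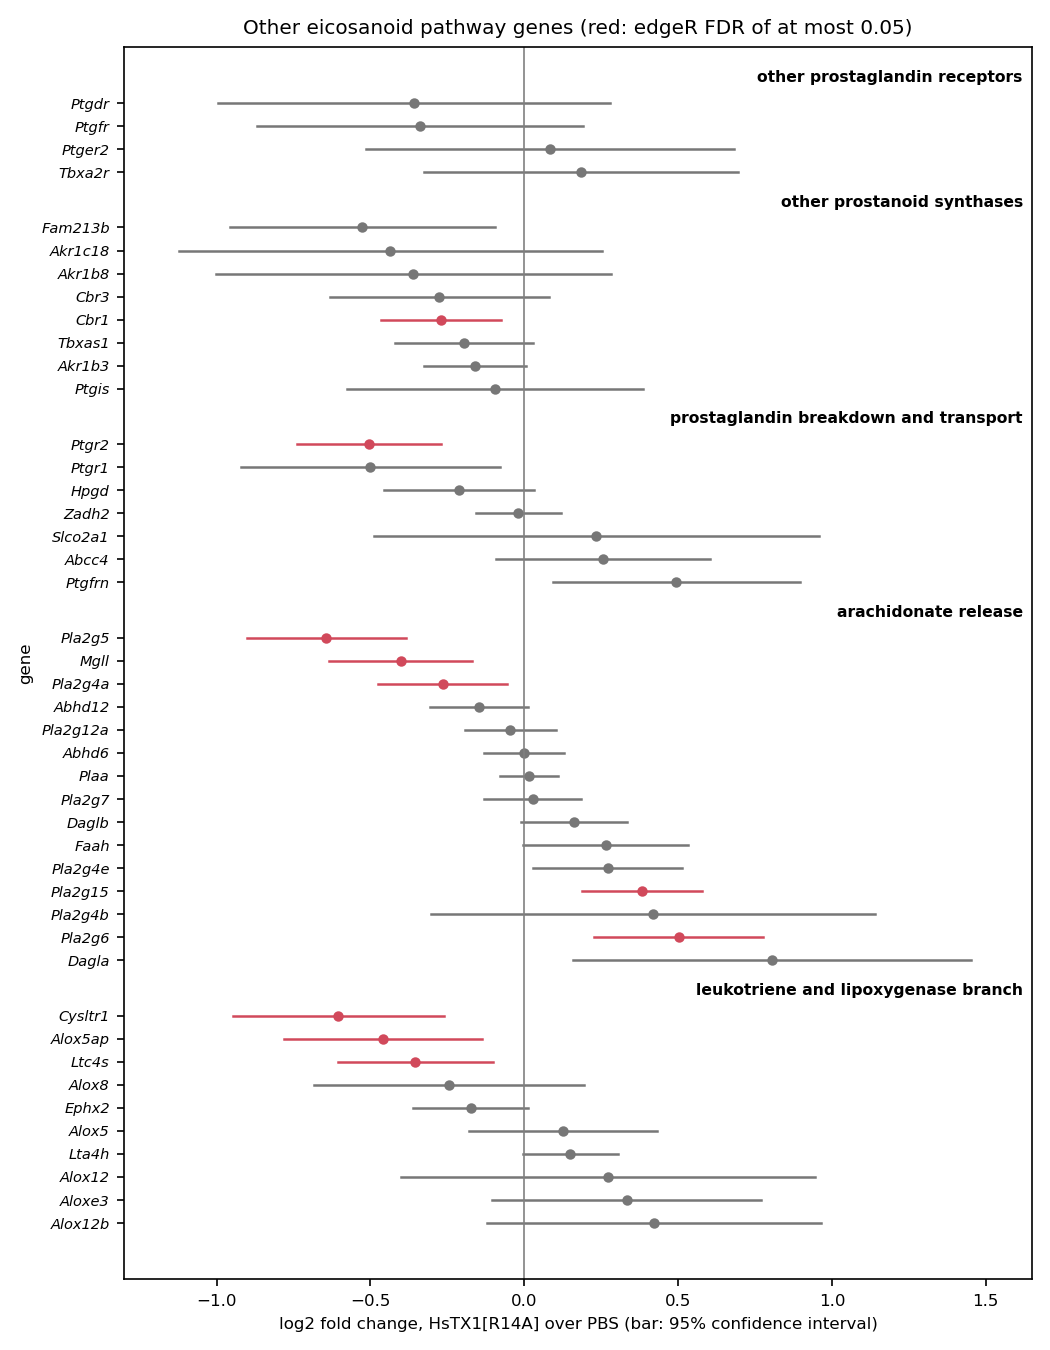
Log2 fold change (HsTX1[R14A] over PBS) with 95% confidence intervals of 44 other eicosanoid pathway genes by list, from edgeR with sex in the model, with genes of an FDR of at most 0.05 in red. The 10 red genes fall at -0.64 to -0.27 (8 lower) and at 0.38 and 0.50 (2 higher), and no red gene is a receptor for prostaglandins.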

How the data were processed

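Whole-brain RNA of 21 SAMP8 mice was sequenced by the authors (12 PBS, 9 HsTX1[R14A]). The labels and the paper name different library kits, and the strand setting of the counting is not given in the sources used here. The authors used STAR with GRCm38 for alignment and Salmon for quantification, per the paper and labels. The estimated counts they deposited are not normalized and cover 16318 genes, and 90.496% lie within 0.01 of a whole number. The deposited table also holds 53 other per-sample columns (37 of CPM, 16 counts of other libraries) and the authors' log2 fold changes, p-values, FDR and mean expression for the treatment comparison, and none of these was used here. Samples were grouped by the treatment and sex in their labels.

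Estimated counts were rounded. After filterByExpr and TMM scaling, treatment was tested in a model that also held sex, by the quasi-likelihood functions glmQLFit and glmQLFTest of edgeR 4.0.16 under R 4.3.3, and Benjamini-Hochberg adjustment covered all 16303 genes (FDR threshold 0.05). Standard errors are the size of the log2 fold change over the square root of F. Log2 CPM carry a prior count of 2. Transcript lengths are from GENCODE M21, found for 99.5% of tested genes. Correlations used log2 CPM with treatment by sex means removed, and the 90 relations of the 10 genes with 7 marker lists, the length slope and the mitochondrial share were tested by 100000 permutations within treatment and sex (two-sided). Figures were drawn with matplotlib 3.10.9 and tables made with pandas 2.3.3. The test procedure was tested on simulated data. Library totals of 14917174 to 47613792 counts gave the 10 genes 8 to 29626 counts per mouse.

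Alternatives were limma/voom (limma 3.58.1), with sample quality weights or without, DESeq2 1.42.0, RLE scaling, 2 other low-count filters, no sex term, the library name form, the length slope or 1 surrogate variable (sva 3.50.0) as covariate, each name form or sex alone, and each mouse left out. Spearman correlation, PBS mice alone for correlations and the principal transcript length were added after seeing the data. All 10 genes are reported, with the 8 other pathway genes of smallest p among those that passed, the 5 genes most like Ptgs1, Ptgs2, Ptgds and Hpgds each, and the 2 most abundant markers of lists, apart from items that are not reported here. The genes, lists and motifs were chosen with earlier results of these data known. Sequences are from RefSeq (GRCm38.p6). P-values of the fits set a group difference against the remaining variation between mice, with 1 library per mouse. Permutation p-values set a correlation against those after shuffling mice within treatment and sex.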

Additional observations from a re-analysis of the deposited data

Results flagged for a closer look

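In the PBS males, mouse 83 had 9.89 CPM of Ptges while the other 5 males had 4.73 to 5.63 CPM. On the log2 scale, the gap between mouse 83 and the next male was 0.763 of the whole range of the 6 mice. This mouse stood apart by Dixon's test for a single distant sample, in 1 of 30 sets of mice tested (10 genes in each set of treatment and sex that held enough mice), and chance gives about 1 in 20. The same mouse had the highest summed level of meningeal fibroblast markers (220 CPM), and the part of these markers in its Ptges value was not tested. Without it Ptges was still lower in HsTX1[R14A]-treated mice (log2 fold change -0.31, adjusted p = 0.0242, edgeR).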

How the results depend on the processing

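The count of 3 genes was the same under RLE scaling, both other filters, limma/voom and DESeq2, and 2 with sample quality weights. The count fell to 1 of the 10 genes without the sex term (2984 of all genes and 6 of the other pathway genes), to 0 with the name form (1999 and 6), to 0 with the length slope (0 and 0), to 0 with 1 surrogate variable (984 and 3), and to 0 within either name form or either sex alone (0 and 0), where fewer mice were compared and edgeR found 5797 and 532 genes in the 2 name forms, 3312 in females and 4440 in males at an unadjusted p under 0.05. The cause was not tested for the covariates. With 1 mouse left out, the counts ran from 1 (in 10 of the fits, without PBS mouse 73, 83, 90 or 91, or HsTX1[R14A] mouse 98, 71, 74, 88, 81 or 92) to 4 (without HsTX1[R14A] mouse 93) of the 10 genes, from 6 to 14 of the other pathway genes and from 2289 (without PBS mouse 90) to 6614 (without HsTX1[R14A] mouse 93) of all genes.

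Signs turned mostly in genes that had not passed. Log2 fold changes of Ptgs1 were -0.033 with the name form, -0.19 with the slope, -0.11 with the surrogate variable, -0.041 in the 15 mice and -0.0067 in males. Those of Ptgs2 were -0.046 with the name form, -0.0076 with the slope, -0.0048 with limma/voom, -0.078 with quality weights and -0.17 in the 15 mice. With the slope and the surrogate variable, Ptges2 was at 0.094 and 0.045, Ptger1 at -0.17 and -0.011 and Ptger3 at -0.083 and -0.013, and Ptges3 was at 0.083 with the slope. Ptger4 was at 0.037 with the name form, 0.082 in the 15 mice and 0.0021 in females, and Ltc4s, which had passed as lower, was at 0.19 in the 6 mice. With 1 mouse left out Ptgs1 ran from -0.0024 to 0.070, Ptgs2 from -0.084 to 0.10 and Ptger4 from -0.12 to 0.028. Scaling by RLE turned no sign. No sex or interaction effect passed under any of their alternatives. No paired analysis was possible because the treatment groups share no mouse numbers and, although treatment was randomized within cages per the methods, the labels do not give the cage. Depth limits Ptger1, which 10 counts in every mouse would remove from the test.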
